A study of Mus musculus with 6 samples.

Results

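The 10 genes described here encode the inducible proteasome and the machinery that loads its peptides onto MHC class I in bone-marrow-derived macrophages (BMDMs). They are *Psmb8*, *Psmb9*, *Psmb10*, *Psme1*, *Psme2*, *Tap1*, *Tap2*, *Tapbp*, *Tapbpl* and *Erap1*, taken by gene name from the 22248 genes of the expression table, and all 10 were found. BMDMs were grown from femur and tibia marrow of C57BL/6 mice in medium with recombinant macrophage colony-stimulating factor (M-CSF), without further stimulation, and their RNA was sequenced. The labels give postnatal week 10, and the methods of the study give a younger age. The control group is 3 libraries from *Lyz2cre* mice, in which the myeloid *Lyz2* locus drives Cre recombinase. The CITED2-deficient group is 3 libraries from *Cited2 fl/fl:Lyz2cre* mice, which carry the same Cre and floxed *Cited2* alleles, so deletion depends on where and when *Lyz2* is active. CITED2 is a nuclear transcriptional regulator that binds the coactivators CBP and p300, and the comparison asks how its loss alters macrophage gene expression. No source used here says whether each library came from a separate mouse, so p-values measure the spread between these libraries, which may be technical.

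The immunoproteasome is the form of the proteasome in which the interferon-inducible subunits encoded by *Psmb8*, *Psmb9* and *Psmb10* replace the constitutive catalytic subunits encoded by *Psmb5*, *Psmb6* and *Psmb7*. Peptides cut by proteasomes enter the endoplasmic reticulum (ER) through the TAP transporter, are trimmed by ER aminopeptidases and are loaded onto class I molecules with the help of tapasin. These genes are known to be induced together by interferons and to be expressed at rest in many hematopoietic cells, macrophages included.

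*Cited2* was measured first, since it checks the labels. It stood at 71.7, 79.3 and 75.5 FPKM (fragments per kilobase of transcript, scaled to the mapped fragments of the library) in control replicates 1 to 3 and at 9.27, 7.22 and 7.53 FPKM in CITED2-deficient replicates 1 to 3, a difference of -3.09 ± 0.082 on the log2(FPKM + 1) scale (SE; limma, adjusted p = 6.57e-09). Recovered depth was 17289286 to 18952077 fragments in the control libraries and 22583995 to 26100410 in the CITED2-deficient libraries. Members were measured with between 335 fragments (*Tapbpl*) and 24808 fragments (*Tapbp*) in a library. CITED2-deficient replicate 1 stands apart from the other libraries in collagen transcripts. *Col1a1* was at 305 FPKM there, against 62.0 and 62.6 FPKM in CITED2-deficient replicates 2 and 3. *Col1a2* was at 175 FPKM against 66.3 and 63.6 FPKM. Not every fibroblast marker followed, as *Dcn* was at 6.83, 6.18 and 7.53 FPKM in CITED2-deficient replicates 1 to 3. The results of the 10 genes are therefore given with and without CITED2-deficient replicate 1.

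All 10 genes were higher in CITED2-deficient BMDMs. Each passed an adjusted p of 0.05 with limma, and in each the 3 CITED2-deficient libraries lay above the 3 control libraries. Over all 11687 tested genes, 16.7% passed in this direction, 34.6% passed in the lower direction, and 19.0% were higher with groups that did not overlap. This balance depends on the scaling, since 1950 genes were higher and 4044 lower with FPKM as deposited and 2696 higher and 2490 lower after median-ratio scaling. The median log2 fold change of the 10 genes was 0.84, against -0.10 for all tested genes. Mean FPKM rose between 1.52-fold (*Erap1*) and 3.20-fold (*Tap1*), and *Tap1* ranked 149 of the 11687 tested genes by log2 fold change. The FPKM of the 10 genes summed to 955, 969 and 966 in the control libraries and to 1845, 1928 and 1918 in the CITED2-deficient libraries. Without CITED2-deficient replicate 1 all 10 still passed, with log2 fold changes from 0.60 (*Erap1*) to 1.68 (*Tap1*). In bulk RNA, more cells that express a gene and more RNA of it per cell cannot be told apart.

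**Figure D1:**
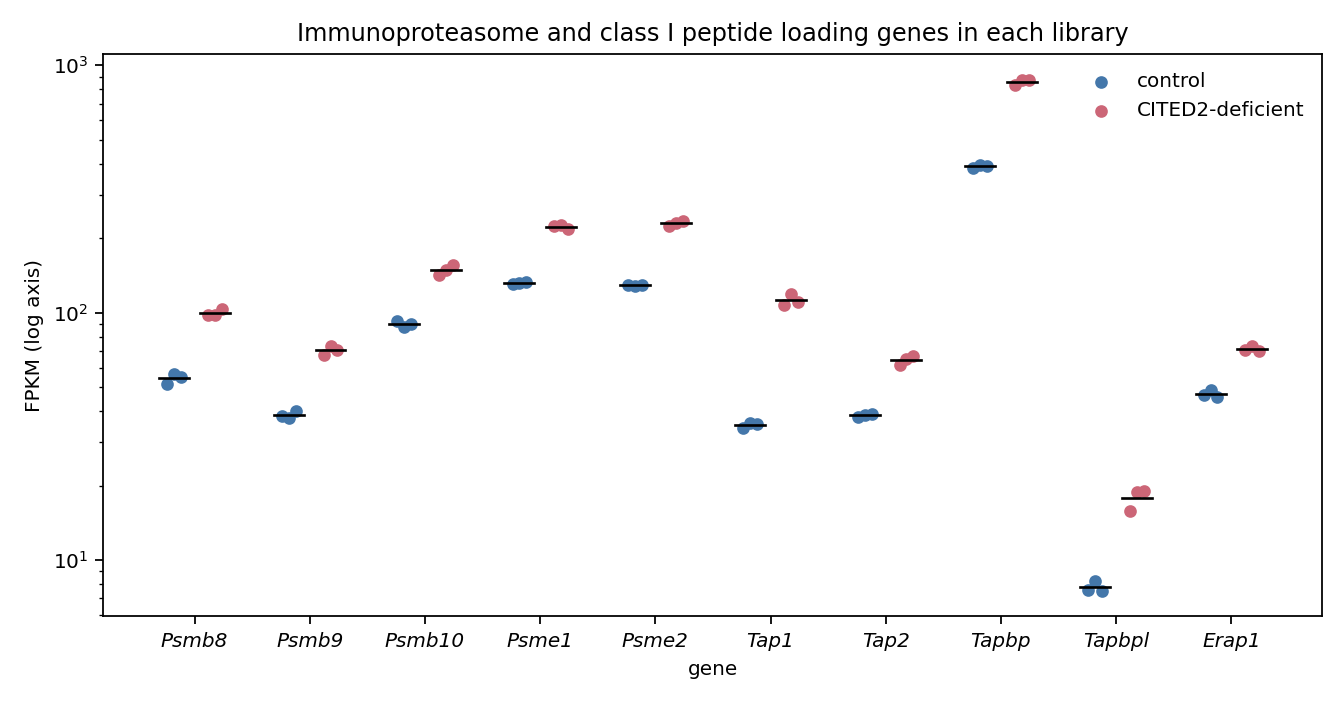
FPKM of the 10 genes in each library on a log axis, with control libraries in blue, CITED2-deficient libraries in red and the group mean as a black line. In each gene the 3 CITED2-deficient libraries sit above the 3 control libraries, and the gap is widest for *Tap1*.

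Of the 10 genes, 4 lie side by side in the MHC class II region of chromosome 17. In mm10, *Psmb9* (ENSMUSG00000096727, 17:34181987-34187764, minus strand), *Tap1* (ENSMUSG00000037321, 17:34187553-34197225, plus strand), *Psmb8* (ENSMUSG00000024338, 17:34197721-34201454, plus strand) and *Tap2* (ENSMUSG00000024339, 17:34203527-34216321, plus strand) span 34.3 kb. *Psmb9* and *Tap1* are read away from each other, and 225 bases separate their RefSeq starts. *Tapbp* is on the same chromosome (ENSMUSG00000024308, 17:33915899-33929292, plus strand). *Psme1* (ENSMUSG00000022216, 14:55578123-55581529, plus strand) and *Psme2* (ENSMUSG00000079197, 14:55587441-55591113, minus strand) are neighbors on chromosome 14. The remaining genes are on chromosome 8 (*Psmb10*, ENSMUSG00000031897, 8:105935735-105938444, minus strand), chromosome 6 (*Tapbpl*, ENSMUSG00000038213, 6:125223933-125231860, minus strand) and chromosome 13 (*Erap1*, ENSMUSG00000021583, 13:74639568-74693201, plus strand). Genes on all 5 chromosomes rose.

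Since the 10 genes moved together, their promoters were searched for letters that are known for interferon and housekeeping control. RefSeq windows (GRCm38.p6, the assembly of mm10) from 250 bases before to 50 bases after a start were available for 8 of the 10 genes, 9 windows in all, and *Tap2* and *Tapbpl* were not searched. The motifs were the interferon-stimulated response element (ISRE) as GAAANNGAAA, the gamma-activated site (GAS) as TTCNNNGAA and the GC box as GGGCGG, each on both strands, and no matches of different motifs overlapped. ISRE letters occurred in 2 genes (*Psme1* and *Erap1*), against 3.44% of 32851 windows over the genome. GAS letters occurred in 1 gene (*Psmb8*), against 8.30% of windows. GC box letters occurred in 6 genes, against 35.7% of windows. Of the constitutive counterparts, *Psmb5* and *Psmb6* had a window, with no ISRE or GAS letters and a GC box in *Psmb6*. The following stretches of 30 bases, on the plus strand from 5′ to 3′, are shown because they hold the ISRE and GAS letters and the GC box that *Psmb9* and *Tap1* share, and capitals mark those letters:
*Psme1*: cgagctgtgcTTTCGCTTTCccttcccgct
*Erap1*: ccaccttcacTTTCACTTTCggtcccgggc
*Psmb8*: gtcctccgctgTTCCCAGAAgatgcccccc
*Tap1* and *Psmb9*: cagactgaggccCCGCCCcatcatcgcgca
The *Psme1* stretch (chr14:55578493-55578522) lies in a first exon of *Psme1*, and its ISRE letters are on the opposite strand, 9 to 18 bases after the start counted as 0. The *Erap1* stretch (chr13:74639839-74639868) lies in the annotated 5′ untranslated region of *Erap1*, with the ISRE letters on the opposite strand from base -4 to base 5. The *Psmb8* stretch (chr17:34198087-34198116) lies from base -108 to base -79 before the RefSeq start, inside a longer first exon of another *Psmb8* transcript, and the GAS pattern, though not the letters printed, is its own reverse complement. The stretch between *Tap1* and *Psmb9* (chr17:34187368-34187397) lies in the untranslated region of a longer *Psmb9* transcript, with the GC box from base -55 to base -50 of *Psmb9* and from base -176 to base -171 of *Tap1*. A match of letters is a description and not a bound site. The search took only these exact letters inside these windows, so sites with other letters or outside the windows were missed. A promoter without a match is therefore not shown to lack such a site.

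Among the catalytic subunits, *Psmb8* encodes LMP7, which takes the place of the *Psmb5* product. *Psmb8* was 51.6, 56.3 and 55.2 FPKM in control replicates 1 to 3 and 98.2, 97.5 and 104 FPKM in CITED2-deficient replicates 1 to 3. The groups did not overlap, and the mean rose 1.83-fold, a log2 fold change of 0.86 ± 0.043 on the log2(FPKM + 1) scale (SE; limma, adjusted p = 3.88e-07). *Psmb9* encodes LMP2, which takes the place of the *Psmb6* product. Its values were 38.1, 37.5 and 40.2 FPKM in control libraries and 67.7, 73.3 and 70.8 FPKM in CITED2-deficient libraries. This gene also rose 1.83-fold with no overlap, a log2 fold change of 0.85 ± 0.044 on the log2(FPKM + 1) scale (SE; limma, adjusted p = 4.78e-07). *Psmb10* encodes MECL1, which takes the place of the *Psmb7* product, and it had the highest FPKM of the 3 inducible subunits. It measured 92.2, 87.8 and 90.3 FPKM in control libraries and 142, 149 and 156 FPKM in CITED2-deficient libraries. The rise was 1.65-fold, a log2 fold change of 0.72 ± 0.039 on the log2(FPKM + 1) scale (SE; limma, adjusted p = 7.73e-07), and every CITED2-deficient library exceeded every control library.

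Of the 3 constitutive counterparts, 1 passed the test. *Psmb5* was 69.5, 68.5 and 74.3 FPKM in control libraries and 69.1, 63.0 and 71.0 FPKM in CITED2-deficient libraries, with a log2 fold change of -0.063 (95% interval -0.18 to 0.054; limma, adjusted p = 0.332). *Psmb7* was 21.8, 23.8 and 22.5 FPKM and 21.5, 23.2 and 24.1 FPKM, with a log2 fold change of 0.015 (95% interval -0.11 to 0.14; limma, adjusted p = 0.844). The libraries of both genotypes overlapped in both genes. *Psmb6* passed the test with a smaller change, from 122, 133 and 129 FPKM to 150.0, 138 and 155 FPKM, a log2 fold change of 0.21 ± 0.050 on the log2(FPKM + 1) scale (SE; limma, adjusted p = 0.00738).

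The ratio of an inducible subunit to its counterpart within a library does not depend on the scaling between libraries. The FPKM ratio of *Psmb8* to *Psmb5* was 0.742, 0.822 and 0.743 in control libraries and 1.42, 1.55 and 1.46 in CITED2-deficient libraries. *Psmb8* thus passed from the lower to the higher FPKM of the pair. Which gene of a pair is higher depends on the transcript lengths FPKM divides by. The fewest fragments in any library were 1170 for *Psmb8* and 900 for *Psmb5*. As a share of the FPKM of both genes, *Psmb8* rose from 43.5% ± 1.45 to 59.6% ± 1.05 (SD, n = 3 per group), with no overlap. The ratio of *Psmb9* to *Psmb6* was 0.312, 0.283 and 0.312 in control libraries and 0.451, 0.533 and 0.456 in CITED2-deficient libraries. *Psmb6* thus kept the higher FPKM in all 6 libraries, while the ratio itself was 1.58 times as high. The ratio of *Psmb10* to *Psmb7* was 4.22, 3.69 and 4.02 in control libraries and 6.60, 6.39 and 6.47 in CITED2-deficient libraries, 1.63 times as high on average. In each of these 3 ratios the genotypes did not overlap, and the two-sided exact permutation p was 0.1, the smallest that 3 against 3 libraries allow. Adjusted over the 6 ratios computed, these exact permutation values were 0.12, so none of them can pass 0.05 in this design.

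**Figure D2:**
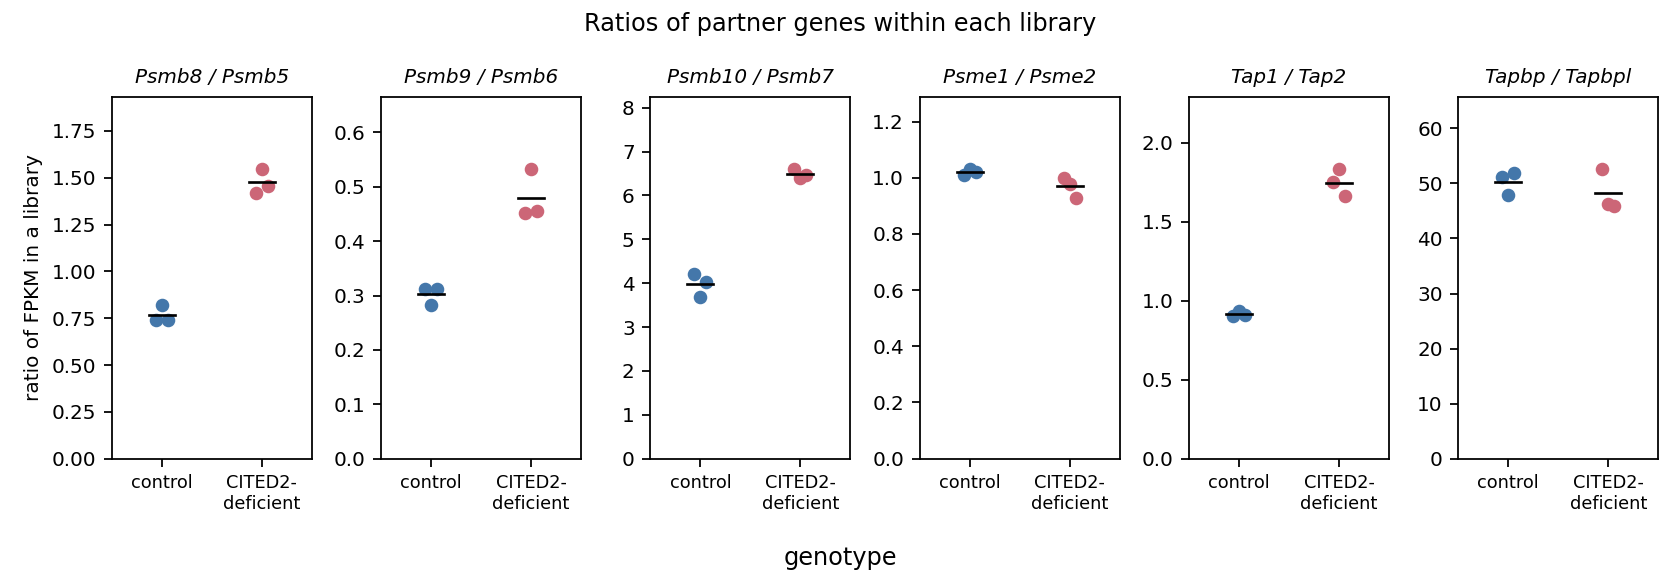
Ratio of the FPKM of both genes of a pair within each library, each panel with its own axis from 0, control in blue, CITED2-deficient in red and the group mean as a black line. The ratios of *Psmb8*, *Psmb9* and *Psmb10* to their constitutive counterparts and of *Tap1* to *Tap2* are higher in CITED2-deficient libraries, while *Psme1* to *Psme2* lies near 1 and *Tapbp* to *Tapbpl* near 50.3 (control) and 48.3 (CITED2-deficient).

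Changes in the rest of the proteasome were of smaller size and went both ways. Of the 11 other subunits of the 20S core, the barrel that holds the catalytic sites, 2 rose, 3 fell and 6 did not pass the test, and their median log2 fold change was -0.0028. Of the 18 subunits of the 19S regulator (the proteasome regulatory particle), the cap that recognizes ubiquitin and unfolds substrates, 3 rose, 1 fell and 14 did not pass, with a median of 0.068. These counts depend on the scaling: over the 32 core and 19S genes, including the 3 constitutive catalytic subunits, 6 were higher and 4 lower with FPKM as deposited, 10 higher and 2 lower after quantile normalization, and 16 higher and 0 lower after median-ratio scaling. The median of all tested genes moved from -0.10 to -0.050 and -0.0069 under these scalings, and the 10 inducible genes passed under all of them. *Psmd8*, a 19S subunit, had the largest change of the 32, from 172, 179 and 159 FPKM to 226, 235 and 244 FPKM, a log2 fold change of 0.47 ± 0.047 on the log2(FPKM + 1) scale (SE; limma, adjusted p = 4.3e-05). Of the 5 assembly chaperones, *Psmg2* and *Psmg1* fell by 0.37 and 0.22 on the log2 scale, though *Psmg1* no longer passed after quantile normalization, after median-ratio scaling or with limma-voom on recovered fragments. *Pomp*, which encodes the proteasome maturation protein, was 74.6 FPKM in control and 74.8 FPKM in CITED2-deficient libraries on average and did not pass.

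**Figure D3:**
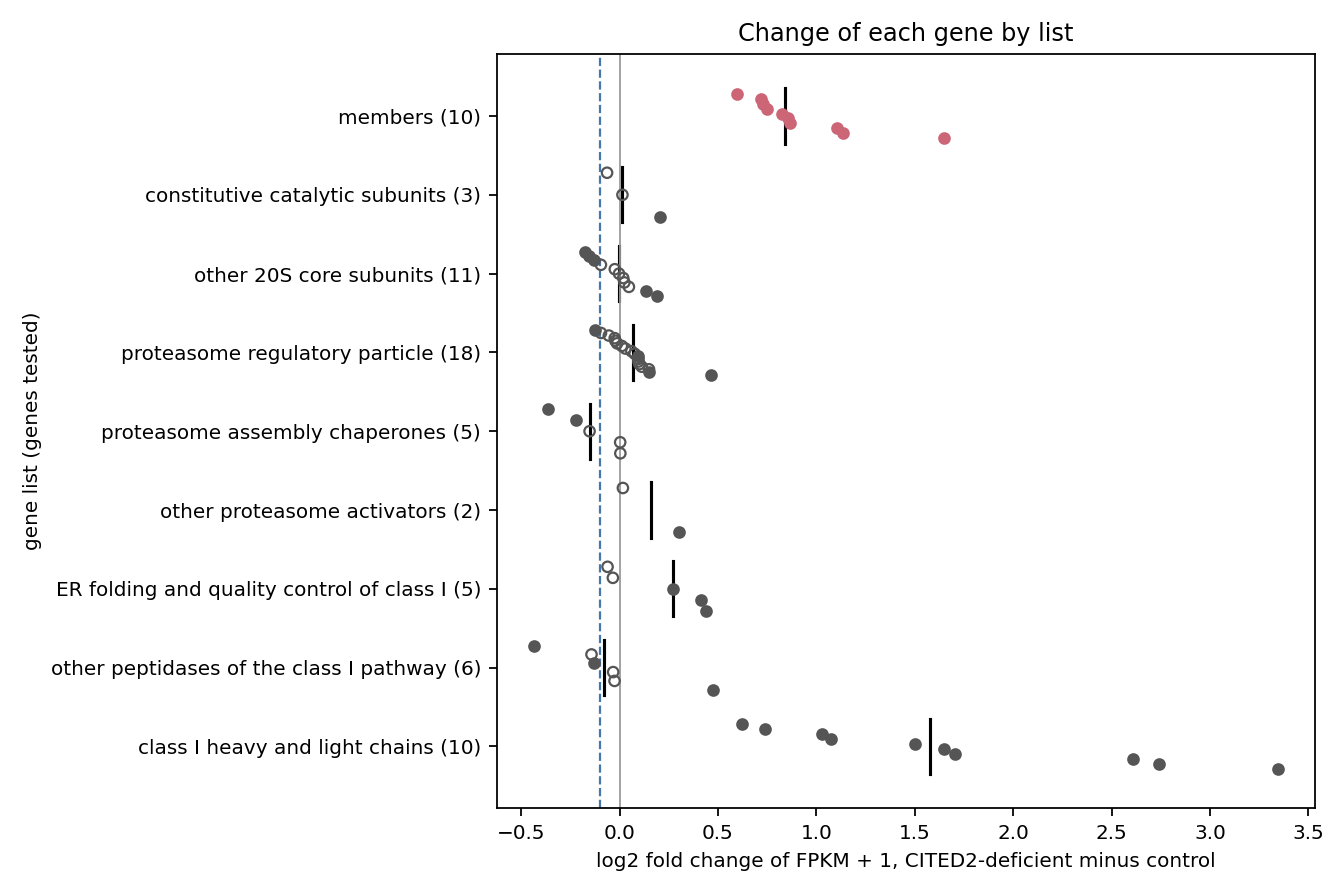
Log2 fold change of FPKM + 1 (CITED2-deficient minus control) for each tested gene of each list, with the number of genes in parentheses, where "members" are the 10 genes described here. Filled points passed an adjusted p of 0.05, open points did not, black bars are list medians, the grey line is 0 and the dashed line is the median of all tested genes (-0.10). The 10 genes and the class I chains lie to the right of 0, and the constitutive proteasome lists lie around it.

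*Psme1* and *Psme2* encode PA28 alpha and PA28 beta, which form the interferon-inducible cap that opens the proteasome and favors release of peptides. *Psme1* was 131, 132 and 132 FPKM in control libraries and 224, 226 and 218 FPKM in CITED2-deficient libraries. It rose 1.69-fold, a log2 fold change of 0.75 ± 0.028 on the log2(FPKM + 1) scale (SE; limma, adjusted p = 5.28e-08). *Psme2* was 129.9, 128 and 129.8 FPKM in control libraries and 223, 231 and 235 FPKM in CITED2-deficient libraries. Its rise was 1.78-fold, a log2 fold change of 0.83 ± 0.029 on the log2(FPKM + 1) scale (SE; limma, adjusted p = 4.17e-08), and neither gene's groups overlapped. The partners stayed near equal per length: the ratio of *Psme1* to *Psme2* was 1.01, 1.03 and 1.02 in control libraries and 1.00, 0.977 and 0.929 in CITED2-deficient libraries. That decrease by 0.075 on the log2 scale had an exact permutation p of 0.1, the smallest possible, and came to -0.046 without CITED2-deficient replicate 3. *Psme3*, which encodes the nuclear activator PA28 gamma, did not pass and measured 76.6 ± 2.53 FPKM in control and 77.6 ± 2.43 FPKM in CITED2-deficient libraries (SD, n = 3; log2 fold change 95% interval -0.071 to 0.10), while after median-ratio scaling it passed at a log2 fold change of 0.12. *Psme4*, which encodes the activator PA200, rose from 70.0 ± 3.00 to 86.5 ± 2.78 FPKM (SD, n = 3), a log2 fold change of 0.30 ± 0.042 on the log2(FPKM + 1) scale (SE; limma, adjusted p = 0.00032).

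*Tap1* and *Tap2* encode the chains of the TAP transporter, which carries peptides from the cytosol into the ER. *Tap1* was 34.2, 36.0 and 35.5 FPKM in control libraries and 107, 119 and 111 FPKM in CITED2-deficient libraries. This was the largest change among the 10 genes, 3.20-fold with no overlap, a log2 fold change of 1.65 ± 0.045 on the log2(FPKM + 1) scale (SE; limma, adjusted p = 8.28e-09). *Tap2* was 37.9, 38.6 and 39.0 FPKM in control libraries and 61.4, 65.1 and 66.8 FPKM in CITED2-deficient libraries. It rose 1.67-fold, a log2 fold change of 0.73 ± 0.041 on the log2(FPKM + 1) scale (SE; limma, adjusted p = 9.48e-07), also with no overlap. The ratio of *Tap1* to *Tap2* was 0.903, 0.931 and 0.909 in control libraries and 1.75, 1.83 and 1.66 in CITED2-deficient libraries, 1.91 times as high, with an exact permutation p of 0.1, the smallest possible. By FPKM, *Tap1* was thus below *Tap2* in every control library and above it in every CITED2-deficient library. That order depends on the lengths FPKM divides by, as the mean annotated transcript length was 2363 bases for *Tap1* and 1420 for *Tap2*. The fewest fragments in any library were 1469 for *Tap1* and 948 for *Tap2*, so which transcript was more numerous is not settled.

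*Tapbp* encodes tapasin, which holds empty class I molecules at the TAP transporter and favors peptides that bind well. It was the most abundant of the 10 genes in both genotypes, at 386, 396 and 390.0 FPKM in control libraries and 835, 874 and 869 FPKM in CITED2-deficient libraries. The mean rose 2.20-fold, a log2 fold change of 1.13 ± 0.028 on the log2(FPKM + 1) scale (SE; limma, adjusted p = 3.39e-09). *Tapbpl* encodes TAPBPR, a tapasin relative that edits peptides outside the TAP complex, and it was the least abundant, at 7.56, 8.26 and 7.52 FPKM in control libraries and 15.9, 18.9 and 19.0 FPKM in CITED2-deficient libraries. The change was 2.30-fold, a log2 fold change of 1.10 ± 0.079 on the log2(FPKM + 1) scale (SE; limma, adjusted p = 4.69e-06), and neither gene's groups overlapped. The ratio of *Tapbp* to *Tapbpl* overlapped between genotypes, at 51.1, 47.9 and 51.9 in control libraries and 52.6, 46.3 and 45.8 in CITED2-deficient libraries (log2 difference -0.062 ± 0.073, SE; exact permutation p = 0.4), a difference within the spread between libraries.

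*Erap1* encodes the ER aminopeptidase that trims peptides to the length class I molecules hold. It was 46.3, 48.5 and 45.6 FPKM in control libraries and 70.7, 73.4 and 69.9 FPKM in CITED2-deficient libraries, the smallest change of the 10 genes. The groups did not overlap, and the rise was 1.52-fold, a log2 fold change of 0.60 ± 0.039 on the log2(FPKM + 1) scale (SE; limma, adjusted p = 2.36e-06). Of 6 other peptidases of the pathway in the table, 1 rose, 2 fell and 3 did not pass. *Lnpep*, which encodes an endosomal aminopeptidase related to ERAP1, rose from 76.7 ± 4.18 to 107 ± 4.42 FPKM (SD, n = 3), a log2 fold change of 0.47 ± 0.048 on the log2(FPKM + 1) scale (SE; limma, adjusted p = 4.09e-05). *Blmh*, which encodes the cytosolic bleomycin hydrolase, fell from 32.3 ± 0.827 to 23.7 ± 1.62 FPKM (SD, n = 3), a log2 fold change of -0.44 ± 0.055 on the log2(FPKM + 1) scale (SE; limma, adjusted p = 0.000181). *Npepps*, another cytosolic aminopeptidase, fell by 0.13 on the log2 scale, but no longer passed after median-ratio scaling, at a log2 fold change of -0.027.

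Of 5 general ER folding factors that also serve class I, 3 rose and 2 did not pass. *Hspa5* (356 to 484 FPKM), *Calr* (618 to 824 FPKM) and *Pdia3* (398 to 481 FPKM) rose, with log2 fold changes of 0.44, 0.41 and 0.27. *Calr* and *Pdia3* encode calreticulin and ERp57, which sit in the loading complex with tapasin, and *Hspa5* encodes the chaperone BiP. *Canx*, which encodes calnexin, had a log2 fold change of -0.034 (95% interval -0.11 to 0.046) and did not pass. *Uggt1*, which encodes the glucosyltransferase that works with TAPBPR, had -0.061 (95% interval -0.15 to 0.024) and did not pass either.

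The class I chains that receive the peptides rose with the loading genes. Of 10 listed chains all 10 were higher, with a median log2 fold change of 1.58. *B2m*, the light chain of all class I molecules, was 2502, 2510.2 and 2441 FPKM in control libraries and 5185, 5271 and 5237 FPKM in CITED2-deficient libraries. The classical heavy chains *H2-K1* and *H2-D1* rose 2.04-fold and 1.67-fold. The smallest log2 fold change was that of *H2-M3* (0.62) and the largest that of *H2-Q6* (3.35), from 6.38 to 74.0 FPKM. Class I heavy chains are a multigene family of near-identical sequences, so the values of single heavy chains are uncertain.

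Transcription factors known for control of class I genes were also measured. *Stat2* and *Irf9*, whose products act in a complex that binds ISRE sites, rose 4.34-fold and 1.61-fold. *Nlrc5*, the transactivator of class I genes, was 19.0, 17.7 and 17.8 FPKM in control libraries and 51.4, 59.9 and 54.3 FPKM in CITED2-deficient libraries, a rise of 3.03-fold. *Irf1* rose 1.80-fold and *Irf2* 1.26-fold, while *Irf8*, a factor of the myeloid lineage, was 209.7 and 207 FPKM and did not pass. Of the RFX genes, whose products recruit NLRC5 to promoters, *Rfx5* and *Rfxank* did not pass, and *Rfxap* fell by 0.26 on the log2 scale. After median-ratio scaling *Rfxap* no longer passed, at a log2 fold change of -0.16.

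The order of the 10 genes by FPKM was much the same in both genotypes. In control libraries it ran from *Tapbp* through *Psme1*, *Psme2*, *Psmb10*, *Psmb8*, *Erap1*, *Psmb9*, *Tap2* and *Tap1* to *Tapbpl*, and *Psmb9* and *Tap2* were the neighbors whose libraries overlapped. In CITED2-deficient libraries *Tap1* moved from rank 9 to rank 5, above *Psmb8*, *Erap1*, *Psmb9* and *Tap2*. There the libraries of *Psme2* and *Psme1* overlapped, as did those of *Erap1* and *Psmb9*. The coefficient of variation between libraries ran from 0.533% (*Psme1*) to 5.39% (*Tapbpl*) in control and from 1.84% (*Psme1*) to 9.85% (*Tapbpl*) in CITED2-deficient libraries. Across the 6 libraries, Pearson correlations between pairs of the 10 genes ran from 0.981 to 0.999, a description in which the libraries share their genotype. The 5 tested genes outside the lists with the highest correlation to the mean scaled level of the 10 were *Ifi47*, *Grn*, *Slc15a3*, *Dhx58* and *Gm6545*, each at 0.9998 or above over the same 6 libraries. Their size of change differed: *Ifi47*, which encodes an interferon-inducible GTPase, rose 4.26-fold, and *Grn*, which encodes progranulin, rose 1.36-fold.

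Overlapping and related genes limit some of these values, because it is not stated whether the counting used strand. *Psmb9* and *Tap1* overlap on opposite strands, and fragments in the shared stretch can be told apart only if strand was used. *Gm20496*, antisense to *Psmb8* and *Tap2*, had 1 to 12 fragments in a library, and *Gm15821* over *Tap2* had 9 to 25, against at least 948 for either host gene. *Gm16156* over *Psmb10* had 0 to 4 fragments. *Vamp1*, opposite *Tapbpl*, had a log2 fold change of -0.43, *Cast*, opposite *Erap1*, 0.19, *Emc9*, opposite *Psme1*, -0.079 (not past the threshold), and *Zbtb22*, on the strand of *Tapbp*, 0.18. *Vamp1* had 299 to 388 fragments in a library against 335 to 1164 for *Tapbpl*, and *Cast* 2429 to 4297 against 1462 to 3178 for *Erap1*. *Emc9* had 189 to 295 against at least 1852 for *Psme1*, and *Zbtb22* 933 to 1635 against at least 7489 for *Tapbp*. *Psme2b*, a near copy of *Psme2*, was 22.2 ± 2.18 FPKM in control and 39.3 ± 3.45 FPKM in CITED2-deficient libraries (SD, n = 3), and how shared reads were divided between the copies is not known.

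The libraries carried macrophage transcripts at high level in both genotypes, with *Cd68* at 1654 and 1717 FPKM and *Adgre1* at 2214 and 1776 FPKM. Of 8 macrophage markers, 1 rose (*Fcgr1*, 172 to 482 FPKM), 5 fell and 2 did not pass, and their sum was 5512 to 5569 FPKM in control and 5136 to 5238 FPKM in CITED2-deficient libraries. *Lyz2*, a gene known for high levels in macrophages whose locus carries Cre in both genotypes, was low here, at 31.3 FPKM in control and 9.75 FPKM in CITED2-deficient libraries on average. Of 8 fibroblast markers 6 were tested and all 6 were higher, and none of the 8 was at 0 in any library. *Lum* (0.162 to 0.0998 FPKM) and *Thy1* (0.415 to 0.621 FPKM) stayed below the filter, overlapped between genotypes and were not tested. The fibroblast sums were 42.4 to 50.6 FPKM in control and 540.4, 170.4 and 171.0 FPKM in CITED2-deficient replicates 1 to 3. All 3 CITED2-deficient sums exceed the control sums, and the part of these cells in the results was not tested. Of 7 dendritic cell markers in the table *Itgax* alone passed the filter, and it rose from 17.7 to 22.8 FPKM. Below the filter, *Clec9a* (0.429 to 1.21 FPKM), *Ccr7* (0.203 to 0.572 FPKM) and *Xcr1* were higher in every CITED2-deficient library than in any control library and were not tested, with *Xcr1* at 0.0356, 0 and 0.0118 FPKM in control and 0.106, 0.0895 and 0.112 FPKM in CITED2-deficient libraries. *Flt3*, at 0 in a control library, *Zbtb46* and *Siglech* overlapped between genotypes. The dendritic cell sum was 17.2 to 20.4 FPKM in control and 23.5 to 27.4 FPKM in CITED2-deficient libraries. Most of it was *Itgax*, at 15.9 to 19.3 FPKM in control and 21.2 to 25.0 FPKM in CITED2-deficient libraries. The part of dendritic cells in the results was not tested. Of 8 neutrophil precursor markers 7 were tested, 1 rose and 5 fell, with sums of 727 to 795 FPKM in control and 658 to 777 FPKM in CITED2-deficient libraries. *Mpo* fell from 16.2 to 1.95 FPKM and *Elane* from 12.4 to 2.15 FPKM, while *Ltf* rose from 94.3 to 177 FPKM, and their part in the results was not tested. Of the 5 B cell markers 1 was tested and did not pass, and none of the 6 T and NK cell markers reached the filter. The B cell markers summed to 2.14 to 3.29 FPKM and 2.07 to 2.82 FPKM, and the T and NK cell markers to 0.627 to 0.916 FPKM and 0.552 to 0.970 FPKM, with 5 of these 6 at 0 in some library.

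**Figure D4:**
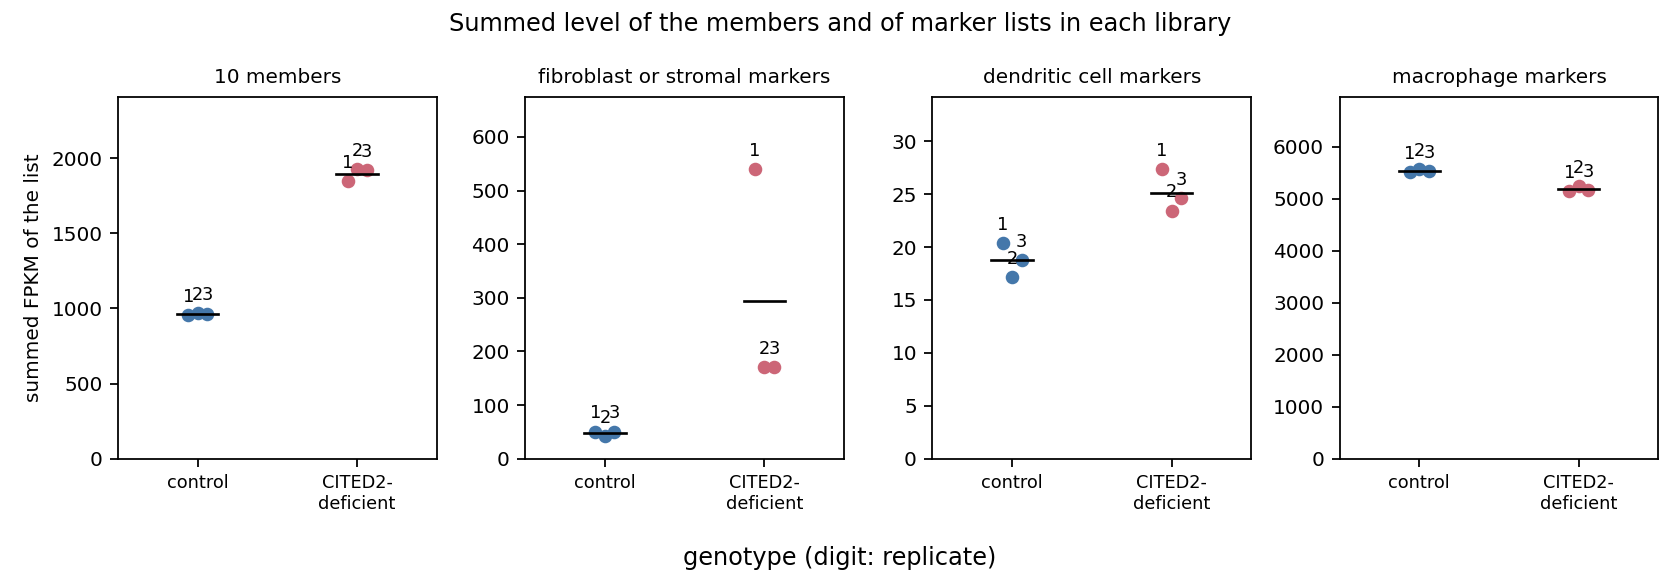
Summed FPKM of the 10 genes and of 3 marker lists in each library, each panel with its own axis from 0, control in blue, CITED2-deficient in red, the group mean as a black line and the replicate number above each point. The 10 genes sum to 955 to 969 FPKM in control and 1845 to 1928 FPKM in CITED2-deficient libraries. The fibroblast and dendritic cell sums are also higher in all 3 CITED2-deficient libraries, with CITED2-deficient replicate 1 highest in both, and the macrophage sums are lower. In that replicate *Col1a1* (305 FPKM) and *Col1a2* (175 FPKM) make up most of the fibroblast sum of 540 FPKM. *Itgax* makes up most of the dendritic cell sum, as in CITED2-deficient replicate 1 (25.0 of 27.4 FPKM) and control replicate 1 (19.3 of 20.4 FPKM).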

How the data were processed

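RNAseq of unstimulated BMDMs covered 3 control and 3 CITED2-deficient libraries. Per the labels and the methods of the study, total RNA was depleted of ribosomal RNA and made into stranded libraries, STAR aligned the reads to mm10, and Cuffdiff gave the deposited FPKM values with GENCODE gene models, 1 value a gene and library. Versions of these tools, the GENCODE release and the strand setting: not given in the sources used here.

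The members and gene lists were chosen with earlier results of these data known. The 11687 of 22248 genes whose mean FPKM reached 1 were tested on log2(FPKM + 1), a scale that understates changes of low genes, with limma 3.58.1 in R 4.3.3 (variance trend, Benjamini-Hochberg over all tested genes, threshold 0.05). The Cuffdiff test of the study was not run, since it starts from alignments. Ratios within a library were compared by two-sided exact permutation tests. The named genes are the 10 members, the genes of the lists, *Cited2* and the 5 genes most correlated with the members. Genes that overlap or copy a member were added after the data were seen, and a listed gene is not reported here.

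Fragment numbers were recovered from the steps between FPKM values with mean transcript lengths of GENCODE vM21. Of 22239 matched genes, 21374 (96.1%) gave whole fragment numbers in each of the 6 libraries, with a tolerance of 0.02. No library was a duplicate: the mean chi-square per gene between replicates ran from 2.26 to 2.92 in control and from 3.79 to 5.86 in CITED2-deficient BMDMs. The fit was tested on simulated data. Alternatives were pseudocounts of 0.1 and 0.5, no filter and a mean FPKM of 5, quantile and median-ratio scaling, equal prior variance, array weights, the replicate number as a block, omission of single libraries, an added 1.5-fold threshold, and limma-voom on recovered fragments.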

Additional observations from a re-analysis of the deposited data

How the results depend on the processing

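Each of the 10 genes kept its direction and its call under all 16 alternative fits, with log2 fold changes from 0.58 (*Erap1*) to 1.75 (*Tap1*) and a largest limma adjusted p of 0.000157 (*Erap1*), and all 10 also passed a fold change of at least 1.5. Under that fold threshold 860 of all tested genes were higher and 689 lower. Median-ratio scaling gave 2696 higher and 2490 lower genes, so that 52.0% of calls were higher against 32.5% with FPKM as deposited and 42.0% after quantile normalization. Of the 32 constitutive core and 19S genes, 10 were higher and 2 lower after quantile normalization, 16 higher and 0 lower after median-ratio scaling, and 1 was lower without the variance trend. Leaving out a library in turn gave 2 to 3 lower genes among these 32, with 2 without control replicate 2, control replicate 3 or CITED2-deficient replicate 3, against 4 with all libraries. Without CITED2-deficient replicate 1, *Psma5*, *Psmb2* and *Psmc3* no longer passed, *Psmc2* newly passed as higher, and *Psmg4* and *Thop1* newly passed as lower, for 3 lower assembly chaperones and 3 lower peptidases. The ratio of *Tapbp* to *Tapbpl* turned to a log2 difference of 0.032 with a pseudocount of 1, and ran from -0.13 to -0.026 with a library left out. No pairing by replicate number was seen in the values, as deviations of same-numbered libraries correlated at 0.01, 0.01 and 0.04. This cannot show that the samples were unpaired. With a replicate block 1895 genes were higher and 3813 lower, with all 10 genes still called.

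With 3 libraries a group, an exact test of a ratio cannot pass 0.05. Control libraries were shallower (mean depth ratio 1.34), and *Tapbpl* had the fewest fragments of the 10 genes. RNA levels say nothing of assembled proteasomes or of peptides on the cell surface.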
